A study of Mus musculus with 6 samples.

Results

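The heat shock protein HSP90 and the cochaperones that work with it were followed as a group of 10 genes in lung endothelial cells (ECs) of mice that lack the long noncoding RNA leene. The group holds both cytosolic HSP90 isoforms (Hsp90aa1 and Hsp90ab1), 7 cytosolic cochaperones (Stip1, Ahsa1, Ahsa2, Chordc1, Fkbp4, Cdc37 and Ptges3) and Trap1, the HSP90 paralog of mitochondria. They are 10 of the 47729 genes in the count tables and were matched to their rows by Ensembl identifier. The group was chosen by measured values of the same KO and WT libraries, so the KO minus WT differences of its members are given as a description, and the counts of members that pass a test, given for reference, support nothing. RNA-seq had been done on 3 libraries of WT mice and 3 libraries of leene-KO mice. All animals were male mice of 14 weeks on a normal chow diet, and both groups received angiotensin II (AngII), a peptide that raises blood pressure, at 1000 ng/kg/min for 2 weeks from an osmotic pump, so no group without AngII is part of the comparison. The KO is a deletion by CRISPR-Cas9 in all cells of the body, on a C57BL6 background, of the mouse region syntenic to the human gene. Per the study, that region encodes Gm41148, the putative mouse leene, and also the long noncoding RNAs Gm49302 and Gm35360. The labels describe cells enriched by CD31 and pooled from 3 mice per group, whereas the study's methods describe a sort by CD144, so the libraries of a group may share animals and their spread may be technical.

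HSP90 is an ATP-driven clamp that takes over partly folded proteins, its clients, from HSP70 and brings them to an active form. Cochaperones guide this cycle by handing clients over, by selecting client kinases or steroid receptors, or by speeding or holding back ATP hydrolysis. In ECs one client is endothelial nitric oxide synthase (eNOS, gene Nos3), which binds HSP90 when it becomes active, and the rationale for the comparison of cochaperones with HSP90 isoforms rests on that partnership. Many HSP90 and cochaperone genes are also textbook targets of heat shock factor 1 (HSF1), which binds arrays of the 3-base unit GAA and its reverse complement TTC in alternating order.

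The 10 genes are spread over the mouse genome (GRCm38), and each value counts reads over all exons of its gene. Hsp90aa1, the stress-inducible isoform, lies at chr12:110690605-110702728 on the minus strand. Hsp90ab1, the constitutive isoform, lies at chr17:45567775-45573271 on the minus strand. Stip1 (also called Hop), the adaptor that bridges HSP70 and HSP90, lies at chr19:7020696-7040026 on the minus strand. Ahsa1 (Aha1), the activator of the HSP90 ATPase, lies at chr12:87266746-87273997 on the plus strand, and its paralog Ahsa2 at chr11:23487882-23498030 on the minus strand. Chordc1 (also called morgana), a zinc-binding cochaperone with CHORD domains, lies at chr9:18292267-18314000 on the plus strand. Fkbp4 (FKBP52), a prolyl isomerase of steroid receptor complexes, lies at chr6:128429735-128438677 on the minus strand. Cdc37, which brings kinases to HSP90, lies at chr9:21138541-21149906 on the minus strand. Ptges3 (p23), which holds the closed clamp, lies at chr10:128058954-128077272 on the plus strand. Trap1 lies at chr16:4039971-4077827 on the minus strand. Exons of Ahsa2 overlap exons of Usp34 on the opposite strand, and since reads were counted by strand the pair are told apart: Usp34 had a log2 fold change of -0.04.

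Promoter windows were read for 8 of the 10 members from RefSeq sequence (GRCm38.p6), each with 250 bases before and 50 bases after the transcription start. A pair of GAA and TTC units can be arranged head to head (GAANNTTC) or tail to tail (TTCNNGAA). Both are palindromes, so a search of one strand covers both strands, and pairs that share a unit were counted separately. Among all 32851 windows, 7.86% held GAANNTTC, 8.52% held TTCNNGAA and 0.603% held at least 3 units in a row, each spaced by 2 bases. Of the members, Chordc1 alone held a run of 3 or more units. Its run has 5 units and stretches from base -4 to base 19 around the start, where bases before the start are counted as negative and there is no base 0, and another pair stands at bases 34 to 41. Fkbp4 held a single head-to-head pair at bases -151 to -144, and Cdc37 a single tail-to-tail pair at bases -170 to -163. The other 5 windows (Stip1, Ahsa1, Ahsa2, Ptges3 and Trap1) held neither pair. The windows of Chordc1, Fkbp4 and Cdc37 are shown because they are the members with a match, and that of Stip1 because it is a member with none and a large difference between the groups. Capitals mark the units of each pair.
Chordc1 (chr9:18292017-18292316, plus strand): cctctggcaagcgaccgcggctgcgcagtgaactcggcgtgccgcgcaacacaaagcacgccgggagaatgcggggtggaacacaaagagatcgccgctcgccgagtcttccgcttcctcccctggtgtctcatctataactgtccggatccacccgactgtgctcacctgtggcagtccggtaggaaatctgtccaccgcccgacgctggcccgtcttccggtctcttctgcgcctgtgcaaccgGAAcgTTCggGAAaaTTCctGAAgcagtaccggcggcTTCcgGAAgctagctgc
Fkbp4 (chr6:128438607-128438906, minus strand): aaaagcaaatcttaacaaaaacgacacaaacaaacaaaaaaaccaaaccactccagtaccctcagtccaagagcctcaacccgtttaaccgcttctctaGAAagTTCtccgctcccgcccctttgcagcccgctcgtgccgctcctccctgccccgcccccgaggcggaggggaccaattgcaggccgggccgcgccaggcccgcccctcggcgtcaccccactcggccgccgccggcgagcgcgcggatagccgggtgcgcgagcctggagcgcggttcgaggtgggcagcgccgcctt
Cdc37 (chr9:21149885-21150184, minus strand): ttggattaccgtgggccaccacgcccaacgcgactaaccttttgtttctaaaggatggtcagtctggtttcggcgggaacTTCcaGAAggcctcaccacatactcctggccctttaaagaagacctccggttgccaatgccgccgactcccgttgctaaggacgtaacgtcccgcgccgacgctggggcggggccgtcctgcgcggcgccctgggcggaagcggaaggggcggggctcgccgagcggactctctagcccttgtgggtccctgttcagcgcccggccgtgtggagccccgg
Stip1 (chr19:7039977-7040276, minus strand): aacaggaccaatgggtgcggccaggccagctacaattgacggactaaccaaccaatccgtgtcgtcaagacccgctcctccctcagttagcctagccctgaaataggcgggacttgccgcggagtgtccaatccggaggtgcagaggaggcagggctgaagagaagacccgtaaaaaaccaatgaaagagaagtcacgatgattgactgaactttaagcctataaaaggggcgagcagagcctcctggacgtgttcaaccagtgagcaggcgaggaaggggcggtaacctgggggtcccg

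**Figure D1:**
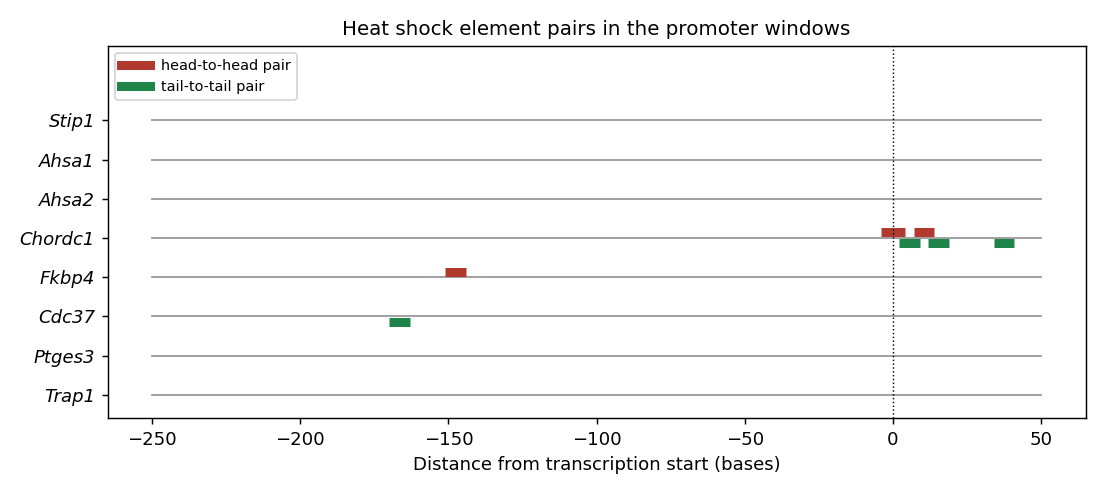
Positions of unit pairs in the promoter windows of the 8 members, drawn against the distance from the transcription start in bases (dotted line). Red bars are head-to-head pairs and green bars tail-to-tail pairs; Chordc1 carries 5 pairs at and just after its start, Fkbp4 and Cdc37 carry 1 pair each far upstream, and the other 5 lines are empty.

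Before the values, a few facts on the libraries bear on how they are read. Total counts lay between 24464324 and 35184063 in WT and between 26159650 and 29189294 in KO, and every member had between 260 and 63522 counts in each library. Counting error of a single library is then 0.397 to 6.20%, and in 6 of the 20 pairs of a member and a group the coefficient of variation between the 3 libraries was below the counting error (Ahsa2, Chordc1, Ptges3 and Trap1). The count tables have no row for Gm41148, so the deletion was not checked and the genotypes are those of the labels. All 15 EC markers were present in every library (Pecam1 at no less than 312.6 CPM and Cdh5 at no less than 177.7), and their summed level of 2721 to 4878 CPM (counts scaled to a common library size) in WT overlapped 3051 to 4888 CPM in KO. The 8 markers of alveolar type II cells were also high. Their sums were 5579, 52499 and 16147 CPM in WT libraries 1 to 3 and 40875 to 50306 CPM in KO. The 7 markers of airway and alveolar type I cells summed to 15665, 41599 and 20442 CPM in WT libraries 1 to 3. In KO they summed to 34494 to 58104 CPM. All these sums were above the highest EC sum, so the cells were not ECs alone. In such bulk samples fewer cells of a type and less RNA per cell cannot be told apart.

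Both cytosolic HSP90 isoforms were lower in KO. Hsp90aa1 stood at 93.5, 90.3 and 130.7 CPM in WT libraries 1 to 3 and at 41.1, 40.5 and 29.3 CPM in KO libraries 1 to 3. Hsp90ab1 stood at 1555, 1138 and 1724 CPM in WT and at 677.4, 736.7 and 669.8 CPM in KO. Neither isoform overlapped between the groups, and within WT library 3 was the highest and library 2 the lowest for both. The log2 fold change, KO minus WT, was -1.50 (SE 0.21) for Hsp90aa1 and -1.08 (SE 0.24) for Hsp90ab1, and the KO level was 35.2% and 47.2% of the WT level. The spread within WT was wide for both, with a coefficient of variation of 21.4% for Hsp90aa1 and 20.5% for Hsp90ab1.

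Cochaperones of client handover and of the ATPase cycle were also lower in KO. Stip1, the HSP70 to HSP90 adaptor, had 86.2, 67.7 and 83.4 CPM in WT and 33.0, 29.1 and 32.1 CPM in KO. Its lowest WT library was still above 2 times its highest KO library, and the log2 fold change was -1.33 (SE 0.14). Ahsa1, the main ATPase activator, had 49.7, 50.6 and 46.0 CPM in WT and 26.8, 31.2 and 32.0 CPM in KO, a log2 fold change of -0.70 (SE 0.12). Ahsa2, its less studied paralog, had 26.6, 27.5 and 27.7 CPM in WT and 11.2, 12.0 and 12.0 CPM in KO, a log2 fold change of -1.22 (SE 0.12). The Ahsa1 to Ahsa2 ratio, both per length, was 6.28, 6.19 and 5.59 in WT and 8.06, 8.71 and 8.998 in KO, without overlap. The share of all gene pairs whose ratio separates the groups was not counted. Chordc1, whose promoter carries the run of 5 units shown above, had 29.3, 29.5 and 29.4 CPM in WT and 15.7, 15.2 and 14.5 CPM in KO. These WT values lay closer together than for any other member, with a coefficient of variation of 0.262% where counting error alone is 3.38%, and the log2 fold change was -0.96 (SE 0.11).

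Among the cochaperones of particular client classes and of the closed clamp, Fkbp4 and Ptges3 were lower in KO and Cdc37 overlapped between the groups. Fkbp4, which serves steroid receptors, had 110.6, 99.7 and 99.4 CPM in WT and 48.9, 52.8 and 56.6 CPM in KO, a log2 fold change of -0.97 (SE 0.13). Ptges3 had 30.3, 24.8 and 29.9 CPM in WT and 17.7, 17.7 and 17.9 CPM in KO, a log2 fold change of -0.67 (SE 0.13). Both genes were separated between the groups by a clear gap. Cdc37, the kinase cochaperone, had 88.0, 65.7 and 62.5 CPM in WT and 61.7, 72.7 and 74.1 CPM in KO. The KO values lay within or just under the WT range, and the log2 fold change was -0.05 with a 95% confidence interval from -0.45 to 0.34. A fall of the size seen for Stip1 or Hsp90aa1 lies outside that interval.

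Trap1, which works in the mitochondrial matrix rather than in the cytosol, overlapped between the groups as well. Its levels were 21.5, 19.9 and 18.4 CPM in WT and 19.2, 18.6 and 18.5 CPM in KO. The log2 fold change was -0.09, with a 95% confidence interval from -0.37 to 0.19. The share of counts from mitochondrial genes also overlapped, at 37.4 to 54.5% in WT and 38.2 to 46.2% in KO.

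**Figure D2:**
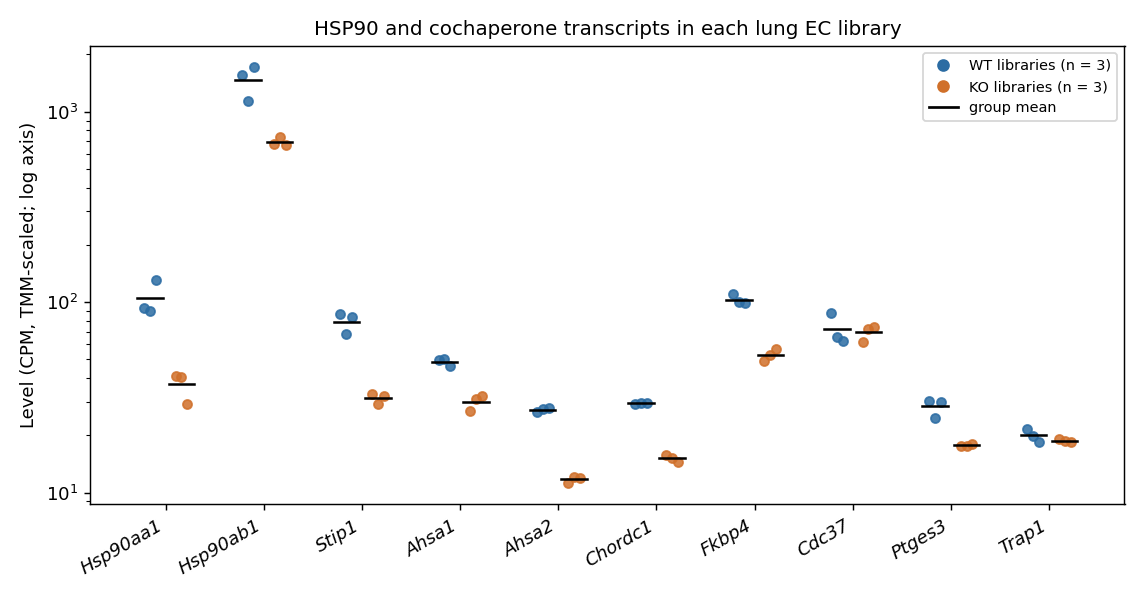
Level of each of the 10 members in each library (CPM, log axis), with WT in blue, KO in orange, 1 point per library and a bar at the group mean. For 8 genes all 3 KO points lie below all 3 WT points, whereas the points of Cdc37 and Trap1 overlap.

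Over the 10 members, 8 had every KO library below every WT library and 2 overlapped; among all 14625 genes tested, 9.20% had every KO library below every WT library. By edgeR's quasi-likelihood test 3 of the 10 passed as lower in KO (Stip1, Ahsa2 and Chordc1) and 0 as higher, where 0.0752% of the genes tested passed as lower. DESeq2, the test of the study, passed 8 of the 10 as lower against 0.594% of the genes it tested, and limma-voom passed 5 of the 10 against 0.116%. Since the members were chosen on this contrast, nothing is read from these shares. The median log2 fold change of the members was -0.96, beside 0.03 over all genes tested. All 8 lower members kept a negative log2 fold change under every alternative setting tried. As every KO library lay below every WT library for these 8, leaving a library out could hardly change the sign, so nothing is read from this. The number that passed the test moved between 0 and 8. By edgeR it was 8 without WT replicate 2 and 2 without WT replicate 1. It was 0 when WT replicate 3 or a KO replicate was left out.

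Levels per length set the members on 1 scale (CPM per kb of exon), which allows levels of different genes to be compared. In WT, Hsp90ab1 was by far the highest at 490.9 ± 100.6 CPM per kb (SD, n = 3), in place 35 of the 14625 genes tested. Fkbp4 at 36.9, Stip1 at 36.4, Ahsa1 at 36.2, Cdc37 at 29.3 and Hsp90aa1 at 26.7 CPM per kb followed, and each of these overlapped its neighbour in the order over the 3 libraries. Chordc1 (13.3) and Ptges3 (12.8) overlapped each other, and Trap1 (7.75) and Ahsa2 (6.02) stood apart below them. In KO, Hsp90ab1 was again the highest at 231.6 ± 12.2 CPM per kb (SD, n = 3) and Ahsa2 the lowest at 2.59 CPM per kb. The middle of the order was not the same. Cdc37, in place 5 of the members in WT, took place 2 in KO at 28.3 CPM per kb, with all 3 libraries above those of Ahsa1 (22.3), Fkbp4 (18.9), Stip1 (14.4) and Hsp90aa1 (9.40). Chordc1, in place 7 in WT, stood behind Ptges3 and Trap1 in KO, at 6.87 CPM per kb.

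The cochaperones were then set against the HSP90 isoforms within each library. The summed level of Hsp90aa1 and Hsp90ab1 was 542.3, 402.4 and 608.1 CPM per kb in WT and 236.3, 256.0 and 230.8 CPM per kb in KO. Hsp90aa1 made up 4.39, 5.71 and 5.47% of that sum in WT and 4.42, 4.03 and 3.22% in KO, and these shares overlapped. Per 100 units of this sum, Cdc37 stood at 6.60, 6.65 and 4.19 in WT and at 10.6, 11.6 and 13.1 in KO. Cdc37 thus held 2.02 times its WT level relative to HSP90, while its own level overlapped between the groups. The HSP90 sum itself stood at 0.466 of its WT mean in KO, so any gene with an unchanged level rises on this scale. The share of all genes that separate on it was not counted. Trap1 went from a mean of 1.55 ± 0.37 to 3.03 ± 0.18 (SD, n = 3 each) and Ptges3 from 2.51 ± 0.28 to 3.33 ± 0.20 (SD, n = 3 each), both without overlap. Stip1, Ahsa1, Ahsa2, Chordc1 and Fkbp4 overlapped between the groups on this scale, with KO to WT ratios of the means between 0.845 for Stip1 and 1.28 for Ahsa1. For these 5 a difference from HSP90 itself was not detectable over the spread of 3 libraries per group.

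**Figure D3:**
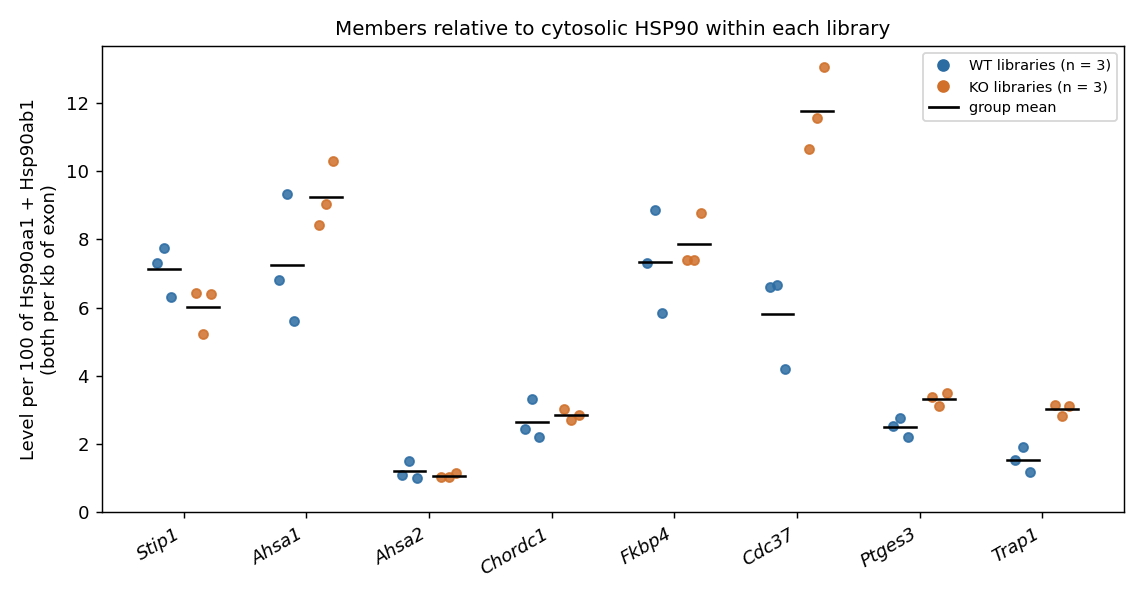
Level of each cochaperone and of Trap1 per 100 units of Hsp90aa1 plus Hsp90ab1, both per kb of exon, in each library (blue WT, orange KO, bar at the group mean). Cdc37, Ptges3 and Trap1 are higher relative to HSP90 in all 3 KO libraries, and the points of the other 5 genes overlap. The HSP90 sum is itself lower in KO.

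As a single value, the mean log2 level of the 7 cytosolic cochaperones minus that of the 2 isoforms was -2.88, -2.79 and -3.31 in WT and -2.67, -2.66 and -2.32 in KO. The groups did not overlap, and the KO mean was higher by 0.44 (pooled SD 0.24, n = 3 each): the cochaperones were lower by 0.84 and the isoforms by 1.28 on the log2 scale. The cochaperone mean includes Cdc37, whose own log2 fold change was -0.05. Relative to the summed isoforms, Stip1, Ahsa1, Ahsa2, Chordc1 and Fkbp4 each overlapped between the groups. The value without Cdc37 was not computed, so the lack of overlap may rest on that gene and nothing is read from it. The difference was 0.29 without WT replicate 3, which had the highest Hsp90aa1 level. Against Hsp90aa1 alone it was 0.66, and against Hsp90ab1 alone it was 0.22 with groups that overlapped.

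The run of 3 or more units was counted across all genes to give a scale for the Chordc1 promoter. Of 11090 tested genes with a promoter window, 58 held such a run, Chordc1 among them. In 14 of these 58 (24.1%) every KO library lay below every WT library, beside 9.67% of all tested genes with a window, and 2 (3.45%) passed edgeR's test as lower, Chordc1 and Hsph1, beside 0.0992% of those genes. Without the member the share was 22.8% of 57 genes, and the median log2 fold change was -0.10, beside 0.02 for all tested genes with a window. With GAANNTTC alone as the motif, 9.53% of 766 genes lay lower without overlap and 4 (0.522%) passed edgeR's test as lower. The runs were found in 300 bases only, and of the members that were lower in KO and have a window, Chordc1 alone holds such a run there. Leaving out Chordc1 still keeps Hsph1, an HSP70 partner whose list was chosen with earlier results of these data known. Nothing is therefore read from the shares of genes with a run, and a part of HSF1 in the differences was not tested.

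Most other HSP90 cochaperones overlapped between the groups, as did 12023 of all 14625 genes tested. Of 32 further cochaperones and paralogs, 30 were tested, 0 passed edgeR's quasi-likelihood test after Benjamini-Hochberg adjustment, and 3 were lower and 0 higher at an unadjusted p under 0.05, a threshold that 4.68% of all genes tested passed as lower and 5.62% as higher. DESeq2 passed 2 of them as lower (Cacybp and Fkbp5) and limma-voom 0. Their median log2 fold change was -0.06, 25 overlapped between the groups and 5 had every KO library below every WT library, beside 9.20% of all genes. Fkbp5, a steroid receptor cochaperone and a well known glucocorticoid target gene, had the lowest value. It had 50.4, 84.9 and 31.8 CPM in WT and 13.7, 12.9 and 14.3 CPM in KO, a log2 fold change of -2.03 (SE 0.33, adjusted p = 0.0989 by edgeR). Its WT libraries differed widely among themselves while its KO libraries lay close together. Cacybp, a partner of Siah ubiquitin ligases, had 36.6, 35.9 and 45.3 CPM in WT and 21.7, 19.3 and 21.6 CPM in KO, a log2 fold change of -0.91 (SE 0.14, adjusted p = 0.0858 by edgeR). Cnpy3, which assists the HSP90 paralog of the endoplasmic reticulum with Toll-like receptors, had the highest value at 0.48 (SE 0.24), with groups that overlapped. Ppid (cyclophilin 40), a partner of the same steroid receptor complexes as Fkbp4, had a log2 fold change of -0.07 with a 95% confidence interval from -0.41 to 0.28.

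**Figure D4:**
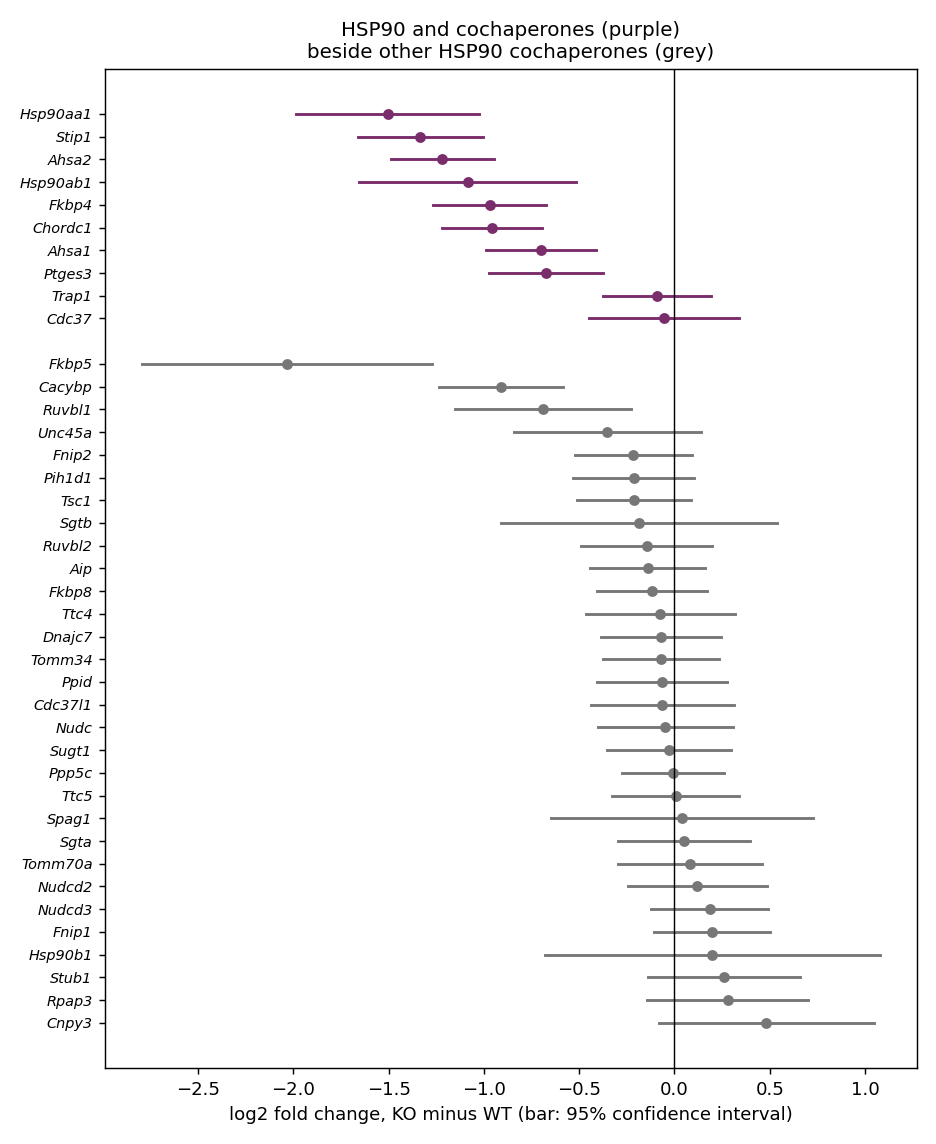
The log2 fold change, KO minus WT, of the 10 members (purple) and of 30 other HSP90 cochaperones and paralogs (grey), as points with 95% confidence intervals by edgeR over 3 libraries per group. Members reach from -1.50 for Hsp90aa1 to -0.05 for Cdc37, while most grey points lie near 0, apart from Fkbp5, Cacybp and Ruvbl1.

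The third HSP90 compartment is the endoplasmic reticulum, where Hsp90b1 (GRP94) serves secreted and membrane proteins. It had 456.0, 1299 and 897.6 CPM in WT and 858.6, 1182 and 1005 CPM in KO, a log2 fold change of 0.20 with a 95% confidence interval from -0.68 to 1.08. The WT libraries were spread too widely for a moderate difference to be detected. Relative to the cytosolic isoforms, Hsp90b1 was at 0.209, 0.800 and 0.366 in WT and at 0.901, 1.15 and 1.08 in KO, without overlap. The denominator of this ratio was itself lower in KO. Among the HSP90 paralogs, the cytosolic pair was thus lower in KO, whereas those of the mitochondria and of the endoplasmic reticulum overlapped between the groups.

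HSP70 partners and heat shock factors were looked at next, since HSP70 delivers clients to HSP90. Of 13 genes tested, 2 were lower in KO by edgeR's test and 0 higher, beside 0.0752% of all genes passing as lower. DESeq2 passed 7 as lower and limma-voom 3, beside 0.594% and 0.116% of all genes. In 10 of the 13 every KO library lay below every WT library, beside 9.20% of all genes, and the median log2 fold change was -0.75. Hsph1 (HSP110), the nucleotide exchange factor of HSP70, had 97.9, 86.2 and 90.9 CPM in WT and 17.3, 22.8 and 21.0 CPM in KO. It was lower by a log2 fold change of -2.17 (SE 0.15, adjusted p = 0.0099 by edgeR's quasi-likelihood test). Hspa1b, an inducible HSP70, had 14.2, 22.2 and 19.9 CPM in WT and 1.29, 2.61 and 1.52 CPM in KO, a log2 fold change of -3.37 (SE 0.31, adjusted p = 0.0188 by edgeR). Hspa1b has a near-identical copy, Hspa1a, and reads that align to both were dropped, so its level is uncertain. Both genes passed in 12 of 16 alternative settings. Neither passed when a KO replicate was left out. The adjusted p by edgeR reached 0.159 for Hsph1 and 0.165 for Hspa1b without KO replicate 3. Neither passed with the replicate number as a block, where the adjusted p by edgeR was 0.0905 for Hsph1 and 0.0701 for Hspa1b. Hspa8, the constitutive HSP70, had 252.1, 213.5 and 291.3 CPM in WT and 122.8, 92.3 and 85.1 CPM in KO. Its log2 fold change of -1.33 (SE 0.20) did not pass edgeR's test (adjusted p = 0.0858) and matched that of Stip1 in size. Hsf1, the heat shock factor itself, had 17.1, 13.7 and 15.9 CPM in WT and 13.5, 14.5 and 14.6 CPM in KO, a log2 fold change of -0.13 with groups that overlapped. Hsf2 had the highest value of this list at 0.09 (SE 0.18), which became -0.062 when libraries were scaled by total counts.

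Among the clients of HSP90, 16 log2 fold changes lay below 0 and 16 above. For 7 clients every KO library lay below every WT library and for 5 above, beside 9.20% and 8.59% of all genes tested. Of 32 client genes tested (kinases, steroid receptors, transcription factors and eNOS), 0 passed edgeR's test, 3 were lower and 5 higher at an unadjusted p under 0.05 (4.68% and 5.62% of all genes), and the median log2 fold change was 0.01. DESeq2 passed 1 as lower (Nos3) and 1 as higher (Nr3c2), and limma-voom 0. Nos3 had the lowest value. It had 44.3, 47.0 and 29.4 CPM in WT and 16.8, 25.2 and 21.0 CPM in KO, without overlap, and a log2 fold change of -0.94 (SE 0.22, adjusted p = 0.274 by edgeR). Per 100 units of cytosolic HSP90, Nos3 was at 1.98, 2.82 and 1.17 in WT and at 1.72, 2.38 and 2.21 in KO, so that the transcript of the client and those of its chaperone were lower by a like proportion within the spread of the libraries. Nr3c2, the mineralocorticoid receptor, had the highest value, with 7.96, 4.61 and 7.26 CPM in WT and 13.9, 12.2 and 13.1 CPM in KO and a log2 fold change of 0.98 (SE 0.22, adjusted p = 0.259 by edgeR).

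Markers of other cell types and of tissue handling were set beside these differences. All 8 B cell markers had every KO library above every WT library, as did 8.59% of all genes tested. Their sums were 10.7 to 24.2 CPM in WT and 86.0 to 92.5 CPM in KO, and their median log2 fold change was 2.45. As higher in KO, edgeR's test passed 3 of the 8, DESeq2 7 and limma-voom 4, beside 5, 87 and 9 of all genes. Of 9 immediate early genes, which respond to cell dissociation, 0 passed edgeR's test, 5 were lower and 0 higher at an unadjusted p under 0.05 and DESeq2 passed 2 as lower. For 4 of the 9 every KO library lay below every WT library, beside 9.20% of all genes, and the sums, which did not overlap, were 404.0 to 468.2 CPM in WT and 282.8 to 374.5 CPM in KO. Of 6 markers of T and natural killer cells, Ncr1 and Klrb1c were at or near 0 in all libraries, and of the 4 tested 2 had every KO library above every WT library; the sums were low, at 1.49 to 3.55 CPM in WT and 3.90 to 6.53 CPM in KO. Of 4 platelet markers 3 had every KO library above every WT library, with sums of 26.2 to 40.2 CPM in WT and 37.4 to 72.3 CPM in KO that overlapped. WT library 2 had the highest alveolar type II sum of all 6 libraries. Among the WT libraries it was the lowest for 4 of the 8 lower members (Hsp90aa1, Hsp90ab1, Stip1 and Ptges3). It was the highest for 2 (Ahsa1 and Chordc1) and in the middle for Ahsa2 and Fkbp4. Whether B cells, T cells, platelets, alveolar or airway cells or the immediate early response had a part in the member differences was not tested.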

How the data were processed

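The authors deposited 1 table of raw counts per library, as whole reads per gene; per the file headers, featureCounts 2.0.0 assigned uniquely aligned reads by strand to GRCm38 genes of Ensembl release 84. The submitters' processing notes name STAR 2.5.4b and bcl2fastq 2.18. Libraries were grouped by genotype as labelled. Of 47729 genes, 14625 passed edgeR's filterByExpr. Counts were scaled by TMM and fitted with glmQLFit and glmQLFTest (edgeR 4.0.16, R 4.3.3), with genotype as the only term. P-values were adjusted over all 14625 genes (Benjamini-Hochberg), and 0.05 was the threshold. Log2 levels used a prior count of 2. DESeq2 1.42.0 (all genes, its default settings) and limma-voom (limma 3.58.1) were alternatives, besides other scalings, filters and libraries left out. The tests were tried on simulated data first. For 1 gene in 3 libraries per group, the smallest p that exact permutation allows is 0.1. At total counts of 24464324 to 35184063, counting error of a member in 1 library is 0.397 to 6.20%, and no pair of libraries agreed within sampling noise. P-values measure only the spread between these libraries, which may be technical.

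The members and the gene lists (other cochaperones, HSP70 partners, clients, markers) were chosen with earlier results of these data known. Named were all 10 members, the genes of the other lists past the threshold, the highest and lowest of each list, and Hsp90b1, Fkbp5, Ppid, Hsf1, Nos3 and Hspa8. Cacybp, Ruvbl1, Usp34, Hspa1a and the markers were named after their values were seen. Promoters came from RefSeq (GRCm38.p6).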

Additional observations from a re-analysis of the deposited data

How the results depend on the processing

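The direction of the 8 lower members was negative under all 16 alternatives, while the number that passed the test moved. Their groups do not overlap, so a kept sign with a library left out was nearly fixed in advance and supports nothing. The members passing numbered 3 by edgeR and 8 by DESeq2, 5 by limma-voom, 5 with RLE scaling, 5 without a filter on low counts, 4 with total counts, and 0 to 8 with a library left out: 8 without WT replicate 2, 2 without WT replicate 1, and 0 without WT replicate 3 or with a KO replicate left out. Over all genes 16 passed by edgeR, against 185 by DESeq2, 26 by limma-voom, 26 with RLE scaling, 123 with total counts, 152 without a filter and 0 to 791 with a library left out (791 when WT replicate 2 was the one left out, and 0 for each KO replicate). DESeq2 after the same filter as edgeR, a setting chosen after seeing the data, passed 300 genes and 8 members, with 2 other cochaperones and 5 clients. Other cochaperones passing numbered 0 by edgeR, 2 by DESeq2, 1 with total counts, 2 without a filter and 0 to 2 with a library left out, and clients numbered 0, 2, 1, 2 and 0 to 6 in the same order. With the replicate number as a replicate block 0 genes and 0 members passed. Correlations of same-numbered deviations were -0.08, 0.22 and 0.01, and those of differently numbered libraries lay between -0.18 and 0.19. With 3 libraries per group these values cannot decide whether the numbers pair the libraries. Scaling by total counts moved the median of all genes from 0.03 to -0.13 and that of the members from -0.96 to -1.14, so the members stayed lower relative to all genes. With a library left out the log2 fold change of Cdc37 lay between -0.17 and 0.11 (0.0018 without KO replicate 1), that of Hsp90b1 between -0.12 and 0.55, and that of Ppid between -0.16 and 0.0066. That of Hsf2 was -0.062 with total counts. The share of motif genes lower without overlap was 24.1% for 3 units in a row and 9.53% for GAANNTTC alone. The cause of these changes was not tested.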
